A study of Mus musculus with 194 samples.

Results

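The limbic cortex (LCtx), here the medial prefrontal and cingulate cortex cut from coronal brain slices, was profiled by 3′-RNA-seq after acute and after repeated cocaine, and the 15 LCtx libraries of these treatments, of 194 libraries in the series, are described. They were chosen by the sample labels alone. All were male C57BL/6OLAHSD mice, 6 to 7 weeks old on arrival, with 1 library per mouse and cocaine at 20 mg/kg, i.p., after habituation to saline injections. Acute mice received 1 dose and were compared with cocaine-naive mice (3 mice at 0 hr, 2 at 1 hr, 2 at 2 hr and 1 at 4 hr). Repeated mice, which the labels call Chronic, received 5 daily doses, the last before sampling, and were compared with mice taken the day after 4 doses (2, 2, 2 and 1 mice). The mice at 0 hr were not injected on that day, so cocaine and the injection itself cannot be told apart. Time points were compared over both treatments together, 1 hr (4 mice) and 2 hr (4 mice) each with 0 hr (5 mice), with treatment as a covariate, and the single 4 hr mice are shown without a test.

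Neurons that are driven strongly transcribe immediate early genes within minutes, without new protein synthesis. Their first products are transcription factors of the Fos, Jun, Egr and Nr4a families, and a second group are effectors that act at synapses or inside signaling pathways, among them phosphatases that shut off the kinases that induced them. Cocaine blocks the reuptake of dopamine, serotonin and noradrenaline, and the medial prefrontal and cingulate cortex receives all of these inputs. The questions of the design were which LCtx genes moved after a cocaine injection, how long the change lasted, and whether mice with earlier doses differed from naive mice.

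Promoters of 5 immediate early genes that were higher at 1 hr after cocaine are printed because many promoters of this class carry a cAMP response element (CRE), the site of the factor CREB, whose palindrome is TGACGTCA and whose half-site is TGACG. The windows are the 250 bases before the gene start in RefSeq (GRCm38.p6), written 5′ to 3′ on the gene's strand: Fos at chr12:85473640-85473889 (plus strand), Junb at chr8:84978749-84978998 (minus), Egr4 at chr6:85513590-85513839 (minus), Nr4a1 at chr15:101266596-101266845 (plus) and Dusp1 at chr17:26508473-26508722 (minus). Capitals mark TGACG or its reverse complement CGTCA, and in Dusp1 also the full TGACGTCA.
Fos: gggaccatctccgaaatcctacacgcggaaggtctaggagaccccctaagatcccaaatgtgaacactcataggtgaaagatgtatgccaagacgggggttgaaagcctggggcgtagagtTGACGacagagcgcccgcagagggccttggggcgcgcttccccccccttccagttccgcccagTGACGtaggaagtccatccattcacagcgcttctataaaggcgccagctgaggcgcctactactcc
Junb: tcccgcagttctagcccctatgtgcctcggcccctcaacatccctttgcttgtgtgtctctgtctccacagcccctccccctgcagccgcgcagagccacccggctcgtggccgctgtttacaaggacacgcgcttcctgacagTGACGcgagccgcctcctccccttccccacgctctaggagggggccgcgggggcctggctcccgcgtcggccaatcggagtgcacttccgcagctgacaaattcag
Egr4: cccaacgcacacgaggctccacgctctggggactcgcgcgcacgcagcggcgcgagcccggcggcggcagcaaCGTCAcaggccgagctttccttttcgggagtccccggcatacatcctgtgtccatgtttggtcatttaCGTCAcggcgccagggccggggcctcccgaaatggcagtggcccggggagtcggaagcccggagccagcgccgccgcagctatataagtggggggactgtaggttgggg
Nr4a1: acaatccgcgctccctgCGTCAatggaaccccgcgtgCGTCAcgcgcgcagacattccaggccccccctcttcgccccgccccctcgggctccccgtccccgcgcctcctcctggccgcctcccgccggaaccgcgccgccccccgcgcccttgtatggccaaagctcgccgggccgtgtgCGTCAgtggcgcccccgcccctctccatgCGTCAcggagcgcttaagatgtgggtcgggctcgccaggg
Dusp1: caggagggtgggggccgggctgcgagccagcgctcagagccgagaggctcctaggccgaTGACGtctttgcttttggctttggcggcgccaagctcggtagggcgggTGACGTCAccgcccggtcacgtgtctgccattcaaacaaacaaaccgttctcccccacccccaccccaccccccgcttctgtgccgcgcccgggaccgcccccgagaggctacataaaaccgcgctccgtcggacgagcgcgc

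The half-site lay 129 to 125 and 66 to 62 bases before the start of Fos, 106 to 102 bases before Junb, at 2 places in Egr4 and at 4 in Nr4a1, and the full palindrome lay 143 to 136 bases before Dusp1. Among the 18 genes called higher at 1 hr, 15 had a RefSeq window and 9 of these held the half-site on either strand (Arl4d, Bex4, Dusp1, Egr2, Egr4, Fos, Junb, Nr4a1 and Per1), against 19.8% of the 27025 genes with a window. The full CRE, which contains the half-site, was in 2 of the 15 (Arl4d and Dusp1) against 1.77% of all. An AP-1 site, TGAGTCA, was in 0 of the 15 against 5.16%, the EGR site GCGGGGGCG in 1 (Nr4a1) against 2.93%, the CArG box of serum response factor in 1 (Egr2) against 1.62%, and the glucocorticoid response element in 0 against 0.0111%. Of the 5 genes called lower, 1 (Homer1) held the half-site. A gene, called or not, was counted where any of its windows held the site. Egr2 had 5 windows, and the one nearest its gene start held 0 of these sites. Its half-site and CArG box lay in the other windows. The half-site was added to the search after these sequences and values had been seen, and a match of letters is not evidence of binding.

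The 13 tested libraries held 2747406 to 6606165 counted reads (median 3375652), and 12394 genes were tested. Values per mouse are given as CPM, the reads of a gene relative to the library's TMM-scaled total. Markers of cortical glutamatergic neurons were present (13 of 14 genes in the table, all of them tested), with summed levels of 5131 to 5981 CPM in 14 of the 15 libraries. In bulk tissue, fewer cells of a type and less RNA per cell cannot be told apart. Acute and repeated LCtx libraries came from different sequencing runs, so their overall levels cannot be told apart from the run: the 12 blood markers summed to 354 to 669 CPM in repeated mice and to 8820 to 14997 CPM in the acute mice other than 1 hr replicate 2. In the other direction, the 12 striatal neuron markers summed to 827 to 1013 CPM in repeated mice and to 433 to 548 CPM in those acute mice, and the 10 choroid plexus markers to 48.4 to 75.0 CPM and 4.64 to 9.27 CPM. Ttr, the leading choroid plexus gene, was at 42.0 to 65.4 CPM in repeated and at 0 to 1.82 CPM in all acute mice. It was the 1 gene of its list that was tested, with a log2 fold change of 0.07 at 1 hr, and was not called. The part of these markers in differences between the treatments was not tested. Time points were compared within each run.

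The library of acute mouse replicate 2 at 1 hr stood apart. In it 48 genes were over 2 times the highest of the other 14 libraries and 8 genes over 5 times, whereas 13 of the other libraries had 0 such genes at either limit and repeated 2 hr replicate 2 had 2 and 1. The genes furthest from the other libraries were Ecel1 (87.2 against a highest other value of 9.07 CPM), Nts (78.0 against 8.95), Zic1 (327 against 45.6), Prkcd (336 against 49.6) and Baiap3 (151 against 27.2). The list of 25 septal and hypothalamic neuron markers holds Nts, Ecel1, Baiap3 and Zic1 themselves. The other 21 summed to 1657 CPM in this library and to 746 to 1030.0 CPM in the other 14, and 14 of the 21 had their highest value in it. The 8 ependymal markers, genes of the ciliated cells that line the ventricles, summed to 188 against 19.6 to 35.6 CPM, with all 8 highest in it, and the 12 oligodendrocyte markers to 4475 against 1569 to 2648 CPM, with all 12 highest in it. Its striatal markers summed to 1109 CPM, above the other 7 acute libraries and all repeated ones, and its cortical glutamatergic markers summed to 3809 CPM, below all the other libraries. The numbers of called genes at each time are therefore given with and without it. So are Nts, Ecel1, Baiap3 and the called genes that rest on it, whereas most uncalled genes are given with it only. The part of these markers in single gene changes was not tested.

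At 1 hr after cocaine, 18 genes were higher and 5 lower than at 0 hr (0.145% and 0.0403% of the genes tested, 0.186% in all; edgeR quasi-likelihood test, Benjamini-Hochberg adjusted p under 0.05 and a fold over 1.2). In order of size the higher genes were Zic1, Fos, Egr2, Arc, Junb, Arl4d, Gm13889, Egr4, Dusp1, Bex4, Myo10, Nr4a1, Gadd45b, Pnma3, Per1, Ddit4, Nnat and Efnb3, and the lower ones Tnnt2, Inhba, Homer1, Cacng2 and Tspan17. The 4 mice at 1 hr lay above all 5 mice at 0 hr for 16 of the 18 higher genes (not for Dusp1 and Efnb3), and below them for 3 of the 5 lower genes (not for Cacng2 and Homer1), where 1.04% of all tested genes separated in each direction. Without acute 1 hr replicate 2, 21 genes were higher (0.168%) and 3 lower (0.024%) of 12492 tested, and 16 of the 23 genes kept their call. Zic1, Efnb3, Pnma3, Myo10, Bex4, Inhba and Tspan17 lost it, while Crym, Jun, Pim3, Btg2, Klf10, Fmod and Ctgf gained one. C2, at 1 to 3 counts in each 0 hr mouse, was also called there, but it had too few counts to be tested with all 13 mice. When each of the 13 mice was left out in turn, 10 genes were called in every fit: Fos, Junb, Egr2, Egr4, Nr4a1, Arc, Dusp1, Gadd45b, Gm13889 and Per1.

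**Figure D1:**
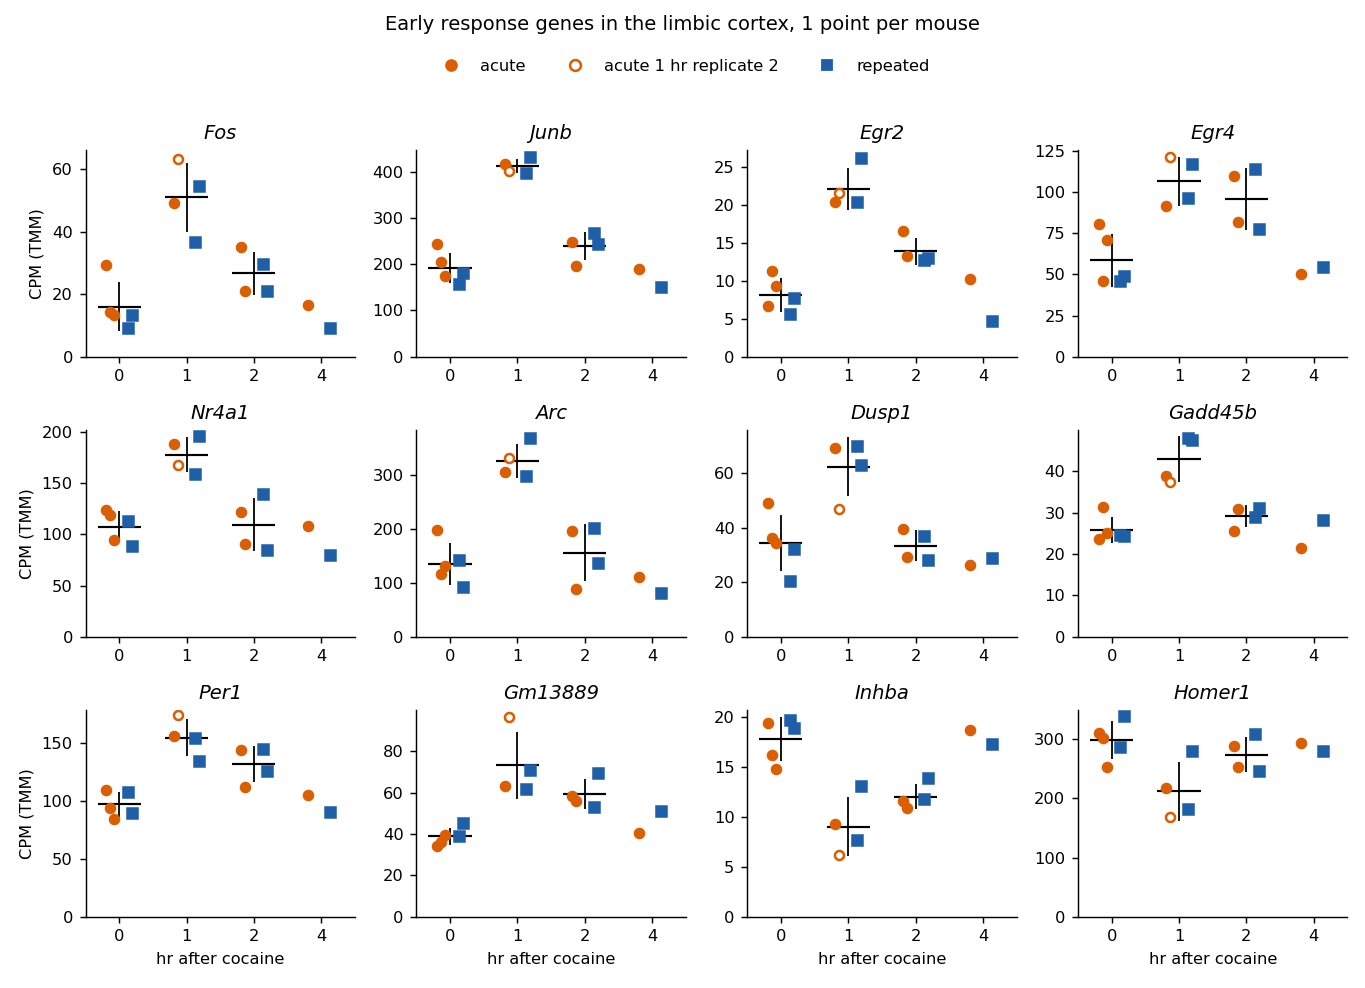
CPM of genes called at 1 hr in each LCtx mouse by hours after cocaine, acute and repeated mice in different colors, with the open circle marking acute 1 hr replicate 2 and lines the mean ± SD of the 0, 1 and 2 hr mice. Fos lay between 36.8 and 63.4 CPM at 1 hr and between 9.15 and 29.5 CPM at 0 hr.

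Fos (chr12:85473890-85477273, GRCm38), which encodes a partner in the AP-1 dimer and marks recently active neurons, was at 29.5, 14.4 and 13.3 CPM in naive mice and 9.15 and 13.4 CPM in repeated mice at 0 hr. At 1 hr it was at 49.3 and 63.4 CPM after acute and at 36.8 and 54.6 CPM after repeated cocaine, and at 2 hr at 35.1, 21.0, 29.7 and 21.0 CPM. All 1 hr mice lay above all 0 hr mice, with means of 51.0 ± 11.1 (SD, n = 4) and 16.0 ± 7.84 CPM (n = 5) and a log2 fold change (log2FC) of 1.71 ± 0.20 (SE; adjusted p = 1.5e-05, edgeR). Junb (chr8:84974484-84978718), another AP-1 subunit, was at 243, 205, 175, 157 and 180 CPM at 0 hr and at 416, 402, 397 and 432 CPM at 1 hr. Relative to the mean, its 1 hr mice were the most alike of the genes called higher, at 412 ± 15.8 CPM (SD, n = 4). Its log2FC of 1.11 ± 0.09 (adjusted p = 2.52e-08, edgeR) had the smallest p-value of the comparison. Of the 8 Fos and Jun family genes, 6 had enough counts to be tested, 2 were called higher and all 6 had a positive log2FC, with a median of 0.48 against 0.0010 over all genes tested. The uncalled members with the highest levels were Jund (log2FC 0.02) and Jun (0.47, adjusted p = 0.123, edgeR), and Jun passed without acute 1 hr replicate 2 (0.53, adjusted p = 0.039). Fosb, whose product accumulates in the striatum with repeated drug exposure, had a log2FC of 0.48 and did not pass (adjusted p = 0.45).

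Egr2 (chr10:67535475-67542188), a zinc finger transcription factor, was at 6.74, 11.3, 9.37, 5.63 and 7.67 CPM at 0 hr and at 20.3, 21.6, 20.4 and 26.1 CPM at 1 hr, with no overlap. The log2FC was 1.46 ± 0.19 (SE; adjusted p = 8.25e-05, edgeR). Egr4, of the same family, was between 45.8 and 80.7 CPM at 0 hr (58.4 ± 16.2, SD, n = 5) and between 91.7 and 121 CPM at 1 hr (106 ± 14.8, n = 4), a log2FC of 0.88 ± 0.14. The other family members behaved differently from each other. Egr1, a common marker of neuronal activity, was at 353, 297, 320, 203 and 229 CPM at 0 hr and at 320, 362, 283 and 379 CPM at 1 hr, so the groups overlapped and the log2FC of 0.31 ± 0.11 did not pass (adjusted p = 0.337). Egr3 had a log2FC of the opposite sign, −0.31 ± 0.10 (adjusted p = 0.321), with 160, 160, 179 and 223 CPM at 1 hr inside and below the 0 hr range of 190 to 264 CPM. Over the 6 Egr and Nab genes (Nab proteins are corepressors of Egr factors), 2 were called higher, 4 had a positive log2FC and the median was 0.30.

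Nr4a1, an orphan nuclear receptor, was at 124, 118, 94.0, 113 and 88.5 CPM at 0 hr and at 188, 168, 159 and 196 CPM at 1 hr. The groups did not overlap, and the log2FC was 0.74 ± 0.11 (SE; adjusted p = 9.87e-04, edgeR). The other members of the family, Nr4a2 (log2FC 0.44, adjusted p = 0.519) and Nr4a3 (0.39, adjusted p = 0.352), did not pass. Among 25 tested genes of the other rapid transcription regulators (29 on the list), 0 were called at 1 hr and 18 had a positive log2FC with a median of 0.17. The members with the highest levels were Id2 (0.05), an inhibitor of basic helix-loop-helix factors, and Ier5 (0.01). Without acute 1 hr replicate 2, 2 of the 25 were called, Klf10 and Btg2, which had 0.70 and 0.65 with all 13 mice (adjusted p = 0.096 and 0.142).

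Of the effectors, Arc (chr15:74669083-74672570), whose protein drives removal of AMPA receptors from synapses, was at 197, 115, 130, 142 and 91.8 CPM at 0 hr and at 305, 332, 297 and 368 CPM at 1 hr. All mice at 1 hr exceeded all mice at 0 hr, and the log2FC was 1.27 ± 0.17 (SE; adjusted p = 8.25e-05, edgeR). Gadd45b, which takes part in DNA repair and demethylation, was at 23.6 to 31.4 CPM at 0 hr and at 38.8, 37.5, 48.0 and 47.5 CPM at 1 hr (log2FC 0.72 ± 0.12). Gm13889, a small gene of unclear function, was at 34.3 to 45.5 CPM at 0 hr and at 63.4, 96.7, 61.9 and 71.1 CPM at 1 hr (0.91 ± 0.12). Arl4d, a small GTPase, was at 9.51 to 21.1 CPM at 0 hr and at 28.2, 24.6, 28.0 and 23.8 CPM at 1 hr (0.94 ± 0.17), and it lost its call when naive replicate 3 was left out (adjusted p = 0.0536).

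The effector list as a whole did not move one way. Of its 33 tested genes (36 on the list), 4 were called higher (Arc, Gadd45b, Gm13889 and Arl4d), 2 lower (Inhba and Homer1), 17 had a positive log2FC, and the median was 0.05. Without acute 1 hr replicate 2, 16 were positive and the median was −0.04. Nptx2, a pentraxin that clusters AMPA receptors, had a log2FC of −0.66 (adjusted p = 0.075) and Bdnf, a neurotrophin, −0.44 (adjusted p = 0.392), and neither passed. The uncalled members with the highest levels were Sst (0.07), the neuropeptide of an interneuron class, and Lingo1 (−0.30, adjusted p = 0.111), a membrane protein that restrains myelination. Lingo1 was lowest in acute 1 hr replicate 2, at 334 CPM against 454, 477 and 514 CPM in the other mice at 1 hr.

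Feedback inhibitors of MAP kinase signaling were represented by Dusp1, a phosphatase that inactivates MAP kinases, which was at 49.2, 36.3, 34.5, 20.4 and 32.3 CPM at 0 hr and at 69.4, 46.7, 69.9 and 63.2 CPM at 1 hr. Of the 4 mice at 1 hr, 3 lay above the 0 hr range and acute replicate 2 lay inside it. The log2FC was 0.86 ± 0.15 (SE; adjusted p = 0.00741, edgeR) and 1.02 without that mouse. It was the only one called of 15 tested genes of this list (16 listed), 9 of which had a positive log2FC with a median of 0.09. Spred1 (−0.17), an inhibitor of Ras signaling, and Rgs4 (−0.28), which shortens G protein signals, did not pass. Rgs4 was lowest in acute 1 hr replicate 2, at 289 CPM against 392, 430 and 512 CPM in the other mice at 1 hr.

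Per1 and Ddit4 were the called members of the 26 tested glucocorticoid-responsive genes (27 listed), of which 13 had a positive log2FC with a median of −0.0011. Per1, a clock gene with both hormone and cAMP response elements known in its promoter, was at 110, 93.7, 84.6, 108 and 90.2 CPM at 0 hr and at 156, 174, 155 and 135 CPM at 1 hr. The log2FC was 0.68 ± 0.09 (SE; adjusted p = 1.34e-04, edgeR), with no overlap between groups. Ddit4, an inhibitor of the mTOR pathway, was at 44.9 to 69.7 CPM at 0 hr and at 97.2, 89.8, 84.8 and 94.2 CPM at 1 hr (log2FC 0.66 ± 0.13, adjusted p = 0.0144). The rest of the list did not pass, and its highest uncalled members, the metallothionein Mt1 and Tsc22d1, had log2FC values of −0.09 and 0.01. Among 18 clock genes, Per1 alone was called and the median was −0.0056, with Tef at −0.02 and Dbp at 0.01.

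Inhba and Homer1 are activity-regulated genes that were lower at 1 hr. Inhba, which encodes a subunit of activin, was at 19.4, 16.2, 14.8, 19.7 and 18.9 CPM at 0 hr and at 9.25, 6.16, 7.64 and 13.1 CPM at 1 hr, without overlap. Its log2FC was −0.97 ± 0.19 (SE; adjusted p = 0.0207, edgeR), and the call was lost without acute 1 hr replicate 2 (−0.85, adjusted p = 0.059). Homer1, a scaffold that links metabotropic glutamate receptors to calcium stores, was at 311, 302, 253, 286 and 340 CPM at 0 hr and at 218, 169, 181 and 280 CPM at 1 hr, where repeated replicate 2 overlapped the 0 hr mice. The log2FC of −0.50 ± 0.10 (adjusted p = 0.0284) was −0.41 without acute 1 hr replicate 2 (adjusted p = 0.017) but did not pass without repeated 1 hr replicate 1 (adjusted p = 0.151). Short and long Homer1 isoforms, which differ in their 3′ ends, are not separated in the gene counts.

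The remaining lower genes were Tnnt2, a cardiac troponin at low level here (7.05 to 12.6 CPM at 0 hr, 3.64 to 5.10 CPM at 1 hr, log2FC −1.30 ± 0.28), Cacng2, the AMPA receptor auxiliary subunit stargazin (62.9 to 110 and 46.4 to 64.7 CPM, −0.48 ± 0.10), and Tspan17, a tetraspanin (75.0 to 85.6 and 46.7 to 68.1 CPM, −0.45 ± 0.10). Cacng2 lost its call when repeated 0 hr replicate 1, its highest mouse at 110 CPM, was left out (adjusted p = 0.169), Tnnt2 without the same mouse (adjusted p = 0.173), and Tspan17 without acute 1 hr replicate 2 (adjusted p = 0.148). None of the 5 lower genes kept its call in all 13 fits that left out 1 mouse.

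The mouse that stood apart had the highest value of 10 of the 18 higher genes, 4 of which (Fos, Egr4, Per1 and Gm13889) are among the 10 called in every fit, the others being Zic1, Myo10, Bex4, Pnma3, Efnb3 and Nnat. Myo10, an unconventional myosin of filopodia, was at 26.4, 44.6, 23.7 and 28.5 CPM at 1 hr, the second value being that mouse, against 16.2 to 20.1 CPM at 0 hr. Bex4 (14.1 to 25.9 CPM at 1 hr), Pnma3 (24.9 to 39.0), Efnb3 (69.4 to 121), which encodes the guidance ligand ephrin-B3, and Nnat (357 to 556), the imprinted gene neuronatin, likewise peaked in it. Without it the log2FC was 0.56 for Myo10 (0.81 with it), 0.74 for Bex4 (0.84), 0.58 for Pnma3 (0.72) and 0.32 for Efnb3 (0.46), and none of these 4 passed, whereas Nnat passed at 0.38 (0.55 with it; adjusted p = 0.00876). Nnat falls outside the rule for named genes and was singled out after its values were seen.

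**Figure D2:**
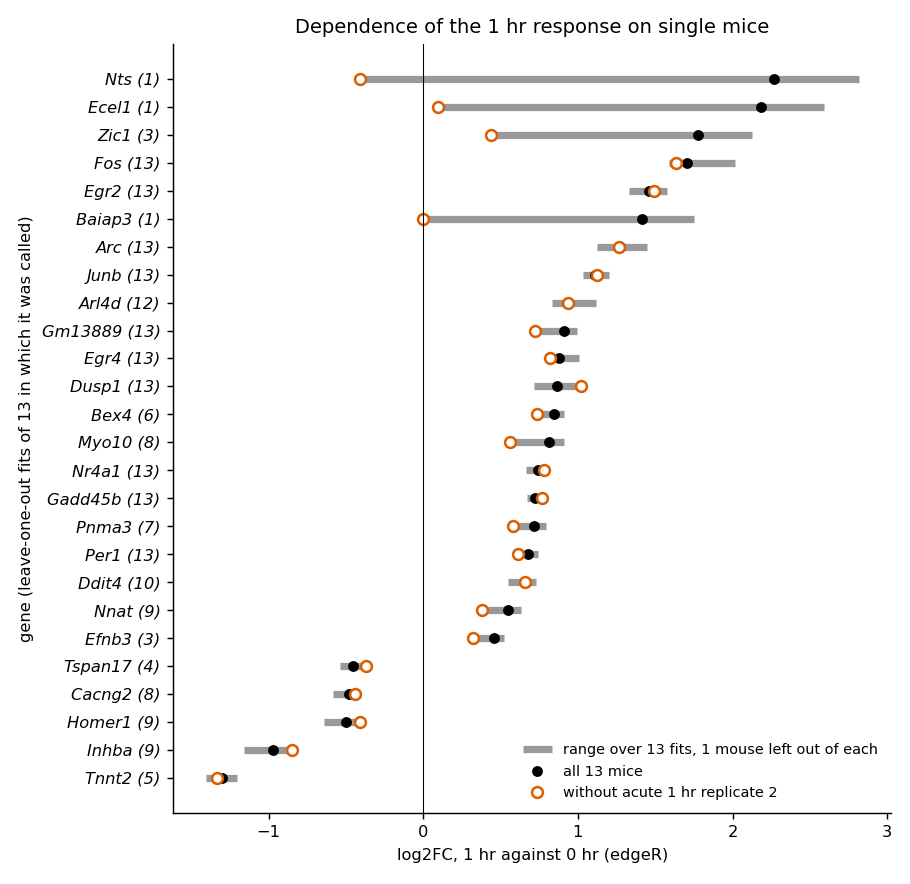
Dependence of the 1 hr against 0 hr response of 26 genes on single LCtx mice (edgeR). The number of the 13 fits, each leaving out 1 mouse, in which a gene was called is given with it. 10 genes were called in all 13 fits, and Nts, Ecel1 and Baiap3 in 1 fit each.

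Zic1, Nts, Ecel1 and Baiap3 rested on 1 mouse. Nts (chr10:102481756-102490486), the precursor of the neuropeptide neurotensin, was at 3.09, 1.41, 3.02, 7.04 and 6.58 CPM at 0 hr and at 1.97, 78.0, 7.28 and 3.43 CPM at 1 hr, which is 304 counts in acute replicate 2 and 13 counts in acute replicate 1. Without the one high value, the 1 hr mice lay inside or next to the 0 hr range. The log2FC was 2.27 ± 0.71 (SE) with an adjusted p of 0.272 (edgeR), and −0.41 (adjusted p = 0.964) without acute 1 hr replicate 2.

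Ecel1 (chr1:87147655-87156521), a membrane-bound metalloprotease of neurons, was at 2.53, 4.23, 4.83, 6.34 and 7.95 CPM at 0 hr and at 4.85, 87.2, 6.55 and 6.85 CPM at 1 hr. Baiap3 (chr17:25242659-25256364), a regulator of dense-core vesicle release, was at 13.2, 24.0, 17.2, 15.5 and 18.1 CPM at 0 hr and at 21.2, 151, 17.8 and 12.4 CPM at 1 hr. The 3 other mice at 1 hr lay inside the 0 hr range for Ecel1, and for Baiap3 inside it or just below it. Neither passed over both treatments, with a log2FC of 2.19 ± 0.59 for Ecel1 (adjusted p = 0.162) and 1.42 ± 0.42 for Baiap3 (adjusted p = 0.23), and without acute 1 hr replicate 2 the values were 0.09 (adjusted p = 0.998) and −0.0012 (adjusted p = 1).

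Zic1 (chr9:91358058-91365810), a zinc finger factor of medial and septal forebrain development, was at 26.6 to 33.8 CPM at 0 hr and at 37.9, 327, 45.1 and 45.6 CPM at 1 hr. All 4 mice at 1 hr exceeded the 0 hr mice, yet its log2FC of 1.78 ± 0.38 (adjusted p = 0.0431, edgeR) became 0.44 (adjusted p = 0.223) without the high mouse. In the acute mice alone within the model of treatment by time, where that mouse is 1 of 2 at 1 hr, in a fit whose spread is shared with the repeated mice, all 4 passed, with a log2FC of 3.90 for Nts (adjusted p = 0.0212), 3.53 for Ecel1 (0.0118), 2.22 for Baiap3 (0.0192) and 2.53 for Zic1 (0.00593). None of the 4 passed when the acute mice were fitted on their own (adjusted p = 0.164 for Nts and Baiap3 and 0.136 for Ecel1 and Zic1). In repeated mice the values were −0.43, −0.10, −0.20 and 0.52, and none passed. Of the septal and hypothalamic markers other than these 4 genes, 9 were tested, all 9 had a positive log2FC at 1 hr with a median of 0.42, and without that mouse 7 of 9 did, with a median of 0.17. Their part in the 4 genes was not tested.

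**Figure D3:**
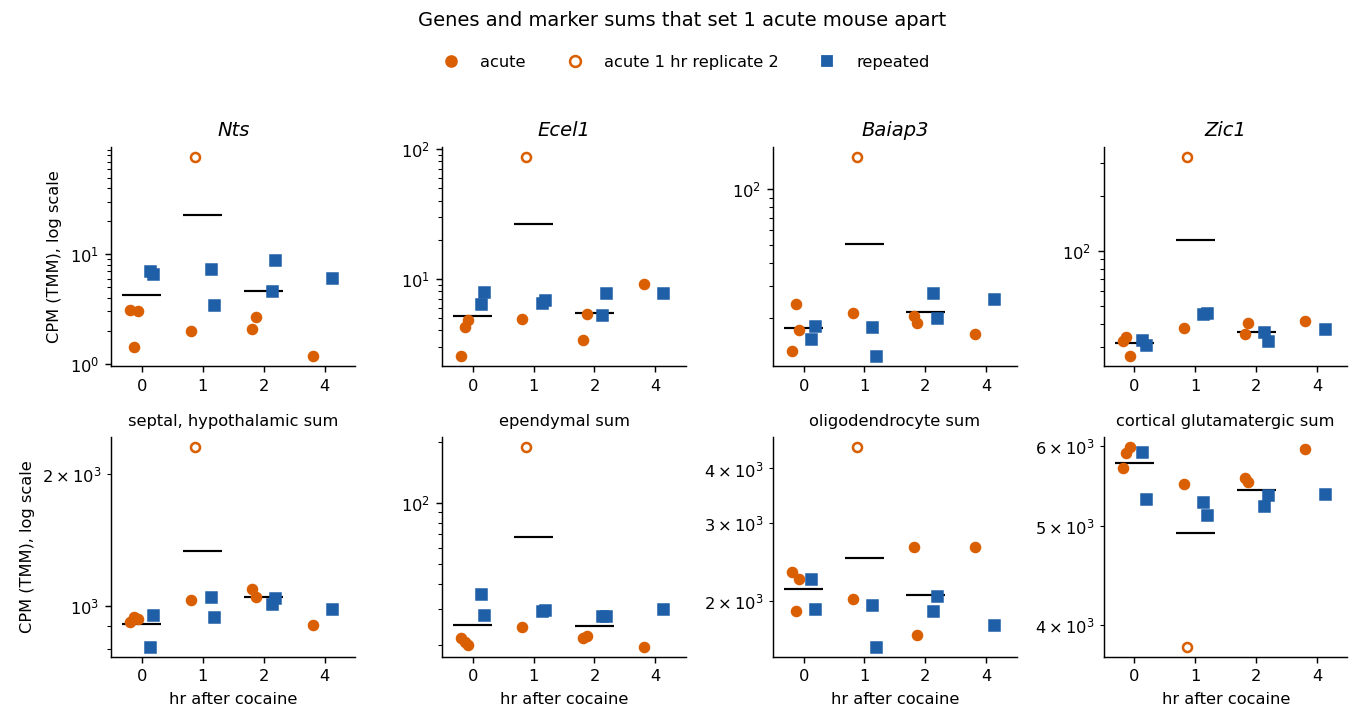
CPM of Zic1, Nts, Ecel1 and Baiap3 in each LCtx mouse by hours after cocaine (log axis), with horizontal lines at the arithmetic mean of the 0, 1 and 2 hr mice and the open circle marking acute 1 hr replicate 2. In each gene this mouse lies far above the other 14, at 327, 78.0, 87.2 and 151 CPM.

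None of the genes on the other cell type lists was called at 1 hr, but several lists lay mostly on one side. Cortical glutamatergic markers had a positive log2FC in 2 of 13 genes with a median of −0.16, which was −0.04 without acute 1 hr replicate 2, striatal neuron markers in 11 of 12 with 0.35 (3 of 12 and −0.10 without), and oligodendrocyte markers in 12 of 12 with 0.22 (2 of 12 and −0.21 without). The 3 tested ependymal markers were all positive with a median of 1.03, which was 0.05 without it, and blood markers were positive in 0 of 12 with a median of −0.28 (1 of 12 and −0.24 without). GABAergic interneuron markers had a median of −0.0024, astrocyte markers of 0.05 and microglia markers of −0.06. The GABAergic markers were mixed, with 6 of 13 positive and 7 at an unadjusted p under 0.05 (edgeR), or 2 without that mouse. In it Gad2 was at 341 and Slc32a1 at 463 CPM, against at most 115 and 158 CPM elsewhere. Their 13-gene sum was its lowest there, at 3915 against 3986 to 4537 CPM. For the 10 genes that kept their call in all fits, the log2FC without that mouse lay between 0.61 (Per1) and 1.63 (Fos).

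At 2 hr, 0 of the 12394 genes passed against 0 hr (0% called, 754 at an unadjusted p under 0.05, edgeR), and DESeq2 called 5 higher: Per1, Bhlhe40, Gm13889, Cbfa2t3 and Foxo6. Bhlhe40, a repressor of the clock loop, was at 93.9, 112, 115, 102 and 92.9 CPM at 0 hr and at 139, 146, 154 and 132 CPM at 2 hr, where the groups did not overlap. Foxo6, a forkhead factor, was at 18.3 to 36.6 CPM at 0 hr and at 46.4, 36.9, 44.2 and 42.3 CPM at 2 hr, also without overlap. Cbfa2t3, a corepressor, was at 43.7 to 59.8 CPM at 0 hr and at 81.0, 63.5, 94.3 and 79.3 CPM at 2 hr, again without overlap. Separation of all 4 mice at 2 hr from all 5 at 0 hr was seen upward in 1.11% of all tested genes. Leaving out acute 1 hr replicate 2, which is at neither of these time points but bears on the estimate of the spread and on the treatment term, gave 10 higher genes (0.0801%: Foxo6, Egr4, Klf10, Cbfa2t3, Gm13889, Fam43b, Bhlhe40, Irs2, Per1 and Nnat) and 3 lower (0.024%: Nrep, Mlip and Slc24a2), with log2FC values from 0.34 to 0.74 and from −0.46 to −0.37. These genes fall outside the rule for named genes and were singled out after their values were seen.

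From 1 to 2 hr, 4 genes fell and 0 rose (0.0323% lower). Arc was 1.07 lower on the log2 scale (adjusted p = 0.0085, edgeR), with 196, 89.2, 201 and 136 CPM at 2 hr. Dusp1 fell by 0.90 (adjusted p = 0.023), Junb by 0.79 (adjusted p = 9.9e-05) and Nr4a1 by 0.71 (adjusted p = 0.0116). Junb was at 247, 197, 268 and 244 CPM at 2 hr, and Nr4a1 at 122, 90.9, 139 and 84.9 CPM, which overlaps its 0 hr range. Without acute 1 hr replicate 2, 7 genes fell (0.056%), the further ones being Fos (−0.87), Btg2 (−0.86) and Id2 (−0.34).

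Of the 18 genes called higher at 1 hr, 17 had a mean at 2 hr between those at 0 and 1 hr, the exception being Dusp1, a position that their choice at 1 hr partly fixes. Egr4 was at 110, 81.8, 114 and 77.5 CPM, with a log2FC of 0.73 against 0 hr (adjusted p = 0.103) and −0.15 against 1 hr, neither past the test. Egr2 was at 16.5, 13.3, 12.7 and 13 CPM (0.79 against 0 hr, adjusted p = 0.357), above all 0 hr mice and below all 1 hr mice. Per1 was at 144, 112, 145 and 126 CPM (0.45, adjusted p = 0.134) and Gm13889 at 58.5, 56.1, 53.2 and 69.4 CPM (0.61, adjusted p = 0.134), both also above all 0 hr mice. At 4 hr, with 1 mouse per treatment and no test, the mean of the pair lay inside the 0 hr range for 17 of the 23 genes called at 1 hr (77.3% of all tested genes), and both mice did for 10 (46.7% of all). Fos was at 16.7 and 9.18 CPM, Arc at 111 and 80.6 CPM, Junb at 189 and 151 CPM and Egr2 at 10.2 and 4.76 CPM.

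Whether the response differed between repeated and acute cocaine was tested as an interaction of treatment and time. It gave 0 genes at 1 hr (0% called, 640 at an unadjusted p under 0.05; DESeq2 also 0, with 355) and 0 at 2 hr (436; DESeq2 0, with 231). Without acute 1 hr replicate 1, which leaves the library that stood apart as the lone acute mouse at 1 hr, the count at 1 hr was 215, and without the library that stood apart it was 0 (395 at an unadjusted p under 0.05). Of the 18 genes called higher at 1 hr over both treatments, 9 had the larger log2FC in repeated mice. For Fos the log2FC was 1.53 ± 0.25 (SE) in acute and 2.02 ± 0.32 in repeated mice, a difference of 0.49 ± 0.41. For Junb it was 0.98 ± 0.11 and 1.30 ± 0.13 (difference 0.32 ± 0.17), for Dusp1 0.55 and 1.31 (difference 0.76 ± 0.29, unadjusted p = 0.015, adjusted p = 0.941, edgeR), and for Gm13889, in the other direction, 1.11 and 0.66 (difference −0.45 ± 0.24). Within the repeated mice, 7 genes were higher at 1 hr (0.0565%: Gadd45b, Egr4, Junb, Dusp1, Arc, Egr2 and Fos), and within the acute mice 18 were higher (0.145%) and 2 lower (0.0161%, or 0.161% in all), a set that includes Nts, Ecel1, Zic1 and Baiap3. When each treatment was fitted on its own, the order of the counts turned, with 13 higher and 1 lower gene in repeated mice and 4 higher and 0 lower in acute mice (992 genes at an unadjusted p under 0.05; Fos, Junb, Per1 and Gm13889 passed).

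**Figure D4:**
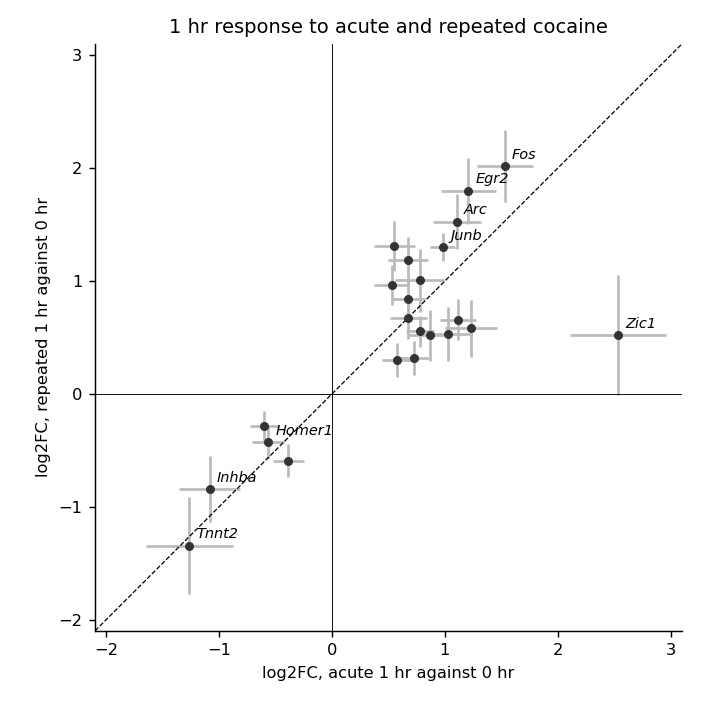
Log2FC at 1 hr (± SE) in acute mice (horizontal axis) and repeated mice (vertical axis) for the 23 genes called over both treatments, with a dashed line of equality. Genes lie on both sides of the line, among them Fos (1.53 acute, 2.02 repeated) and Zic1 (2.53 acute, 0.52 repeated). The genes were chosen on both treatments together, so their shared direction is not a result.

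The LCtx of other mice, given a challenge dose after abstinence from repeated cocaine, offers values that took no part in the choice of these genes (2, 4 and 4 mice at 0, 1 and 2 hr). These libraries came from 2 sequencing runs, and the run was a term of the model. There 8 of 12027 genes were higher at 1 hr (0.0665%) and 0 lower, and all 8 were among the 18: Junb (log2FC 1.16, adjusted p = 2.06e-09, edgeR), Egr4 (0.99, adjusted p = 1.12e-04), Arc (1.08, adjusted p = 1.93e-04), Fos (1.27, adjusted p = 4.4e-04), Arl4d, Gadd45b, Egr2 and Ddit4. In those mice Fos was at 23.7 and 32.1 CPM at 0 hr and at 81.2, 47.5, 70.5 and 62.2 CPM at 1 hr, and Junb at 187 and 189 CPM and at 463, 344, 454 and 420 CPM. Neither gene's groups overlapped, and 5.3% of all tested genes separated upward in this way. Of the 23 genes, 17 of 18 higher and 3 of 5 lower ones kept their sign, and all 10 genes stable to leaving out a mouse had a positive log2FC, as did 51.1% of all genes tested.

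The size of the 1 hr response was compared with that of the dorsal striatum (DS; 25 acute and repeated libraries at 0, 1 and 2 hr) in 1 model of both structures. Some DS mice were sequenced in 2 runs. For these, 1 library per mouse was kept, that of the run that held all DS mice of its treatment. By the study's sample names, all 13 LCtx mice also gave a DS library, and the model took the libraries as separate. The LCtx response was lower than that of the DS for 27 of 12958 genes (0.208%) and higher for 6 (0.0463%). Without acute 1 hr replicate 2 it was lower for 13 (0.0996%) and higher for 0, and the 13 were all among the 27. With the mouse as a block over the 26 paired libraries, a fit added after the values were seen, it was lower for 44 genes (0.342%) and higher for 6 (0.0467%), and without that mouse lower for 30 (0.232%) and higher for 5 (0.0386%). Of the 13 genes, 12 passed in both blocked fits, and Kdm7a did not (adjusted p = 0.058 and 0.166). Nr4a3 had a log2FC of 0.38 ± 0.23 (SE) in the LCtx and 2.54 ± 0.20 in the DS (difference −2.15, adjusted p = 1.32e-04, edgeR), Fosl2 0.32 and 2.29 (difference −1.97), Fosb 0.47 and 2.21 (−1.74), Nr4a1 0.73 and 2.41 (−1.67), Egr4 0.87 and 2.25 (−1.38) and Junb 1.10 and 2.25 (−1.15). So in Nr4a1, Egr4 and Junb the LCtx rise was the smaller one.

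The other genes of the 13 were Rnd3 (difference −1.72), Tiparp (−1.38), an ADP-ribosyltransferase, Dusp14 (−1.34), Slc25a25 (−0.96), a mitochondrial carrier, Dnajb5 (−0.92), a chaperone, Homer1 (−0.89) and the histone demethylase Kdm7a (−0.65). The log2FC had opposite signs in Homer1 (−0.51 ± 0.14 in the LCtx and 0.38 ± 0.10 in the DS), Dusp14 (−0.14 ± 0.17 and 1.195 ± 0.13) and Kdm7a (−0.25 ± 0.11 and 0.40 ± 0.07), of which Homer1 alone was called lower in the LCtx. For Fos (1.70 in LCtx and 2.58 in DS, difference −0.88, adjusted p = 0.491) and Arc (1.26 and 2.26, difference −0.99, adjusted p = 0.183) the difference did not pass between separate libraries. With the mouse as a block, Arc passed with and without acute 1 hr replicate 2 (−0.98, adjusted p = 1.42e-04, and −0.92, adjusted p = 4.48e-05), and Fos passed with it (−1.02, adjusted p = 0.0254) but not without it (−0.97, adjusted p = 0.0796). Egr2 passed with all mice (difference −1.71, adjusted p = 0.0222) and not without acute 1 hr replicate 2 (adjusted p = 0.053), but in both blocked fits (adjusted p = 1.87e-04 and 1.93e-04). The 6 genes with a higher response in the LCtx, among them Zic1, Ecel1 and Myo10, all lost the call without that mouse in the fit of separate libraries. At 2 hr the LCtx response was lower than that of the DS for 4 genes (0.0309%) and higher for 0, or 6 and 2 without that mouse, and with the mouse as a block for 1 and 0, or 4 and 1 without that mouse. Against the amygdala (12 libraries, 7 of the 13 LCtx mice among their donors, no block fitted), in which 9 genes were higher at 1 hr (0.0702%), no gene's 1 hr response passed the test of a difference (0 of 12818, 0%, edgeR; 723 at an unadjusted p under 0.05, also 0 without that mouse).

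**Figure D5:**
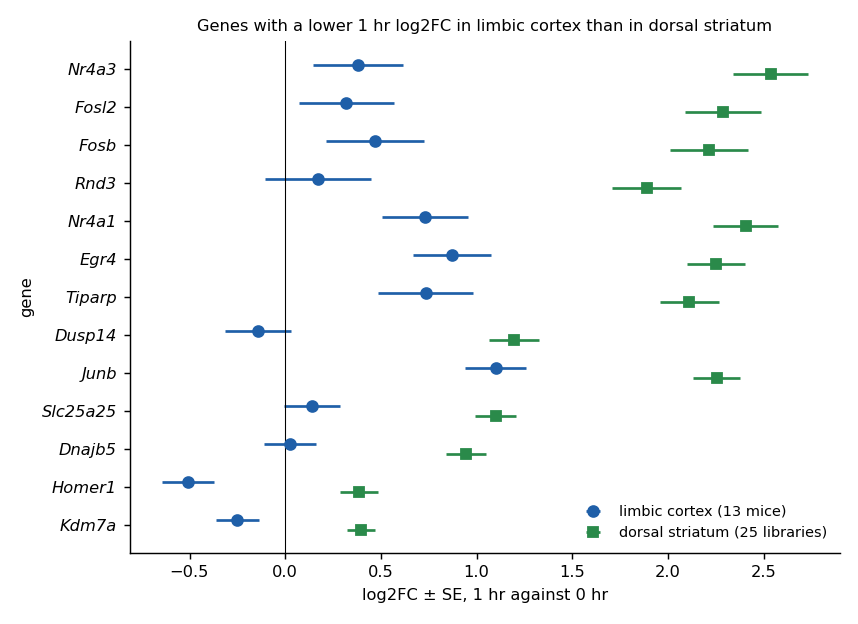
Log2FC at 1 hr (± SE) in the LCtx and the DS, from 1 model of both structures, with libraries taken as separate, for the 13 genes whose response was lower in the LCtx with and without acute 1 hr replicate 2. The DS value is the higher one in every gene, from 0.38 for Homer1 to 2.54 for Nr4a3.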

How the data were processed

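Counts of 3′-RNA-seq reads per gene (19363 genes, 194 libraries) were used as the authors deposited them, without normalization for library size. The authors had used STAR (genome build GRCm38) for alignment and HTSeq for counting, after collapsing unique molecular identifiers. Groups and replicate numbers came from the sample labels.

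In R 4.3.3, edgeR 4.0.16 (filterByExpr by time, TMM factors, quasi-likelihood F tests) was fitted to the 13 LCtx mice at 0, 1 and 2 hr with time and treatment as terms, and with treatment by time for the interaction. Genes with a Benjamini-Hochberg adjusted p under 0.05 over all genes tested and a fold over 1.2 were called. Genes differing between LCtx and DS or amygdala were tested in 1 model of both structures, with the mouse as a block as an alternative for the DS chosen after the values were seen. Challenge mice were fitted with run and time. p-values measure the spread between these mice, 2 or 3 per treatment and time.

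Members, gene lists and tests were chosen with earlier results of these data known. Named genes were Nts, Ecel1 and Baiap3, the 15 called genes with the largest log2FC at 1 and 2 hr in each direction, called list members with up to 2 uncalled members of highest level, the 5 called genes with the smallest adjusted p in each direction of 2 hr against 1 hr and of the interaction, and the 5 whose adjusted p rose most when 1 mouse was left out. Other genes, among them Crym, Jun, Pim3, Fosb, Bdnf, Nptx2, Egr1, Egr3 and the genes of the DS comparison, were named after their values were seen.

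DESeq2 1.42.0, RLE factors, no filter on low counts, the 4 hr mice, a replicate block, each treatment alone, a fold over 1.5, and each mouse left out were alternatives. Python 3.11.15 with pandas 2.3.3, numpy 2.4.6 and matplotlib 3.10.9 made summaries and plots. Promoters came from RefSeq (GRCm38.p6), where 20 of the 23 called genes had a window, and gene coordinates from GENCODE M21, which may differ from the annotation counted on.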

Additional observations from a re-analysis of the deposited data

Results flagged for a closer look

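A mouse stood far from the rest of its time group in 15 of 144 groups tested with Dixon's test, where chance gives about 1 in 20, and 7 of the 15 were acute 1 hr replicate 2. Nts, Ecel1 and Baiap3 were examined because they rest on 1 mouse, so their groups and those of the list that holds them (5 of 12) are not evidence of an excess. Of the other 132 groups, 10 had such a mouse. In that mouse Zic1 was at 327, Nts at 78.0, Ecel1 at 87.2 and Baiap3 at 151 CPM, and the septal and hypothalamic, ependymal and oligodendrocyte marker sums were 2300, 188 and 4475 CPM, against 942 to 1049, 24.4 to 29.8 and 1569 to 2022 CPM in the 3 other mice at 1 hr.

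The other 8 lay in 7 mice. At 0 hr, Fos was at 29.5 CPM in naive replicate 1 (9.15 to 14.4 CPM in the other 4 mice), Gadd45b at 31.4 CPM in naive replicate 2 (23.6 to 25.1 CPM), the glucocorticoid-responsive genes summed to 5834 CPM in repeated replicate 1 (4093 to 4568 CPM), and the septal and hypothalamic markers to 807 CPM in the same mouse (918 to 952 CPM). At 1 hr the effector list summed to 4721 CPM in repeated replicate 2 (4233 to 4289 CPM) and the astrocyte markers to 4465 CPM in acute replicate 1 (4790 to 4849 CPM). At 2 hr Egr2 was at 16.5 CPM in acute replicate 1 (12.7 to 13.3 CPM) and the GABAergic markers summed to 4464 CPM in repeated replicate 2 (4097 to 4141 CPM).

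The 1 hr response differed between LCtx and DS, by the test of the difference with and without acute 1 hr replicate 2, in Nr4a3 (−2.15), Fosl2 (−1.97), Fosb (−1.74), Rnd3 (−1.72), Nr4a1 (−1.67), Egr4 (−1.38), Tiparp (−1.38), Dusp14 (−1.34), Junb (−1.15), Slc25a25 (−0.96), Dnajb5 (−0.92), Homer1 (−0.89) and Kdm7a (−0.65), each value being the LCtx minus the DS log2FC. With the mouse as a block, all but Kdm7a passed.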

How the results depend on the processing

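At 1 hr, the 10 genes stable to leaving out a mouse were also called by DESeq2, with RLE factors, without a filter, with the 4 hr mice included and with the replicate block, 9 of them in repeated mice alone, 4 in acute mice alone and 7 by DESeq2 without acute 1 hr replicate 2. Higher genes at 1 hr numbered 131 with no filter on low counts, 4 in acute mice alone, 10 by DESeq2 without acute 1 hr replicate 2 and 10 to 43 when 1 mouse was left out (10 without naive replicate 3). Lower genes numbered 14 by DESeq2, 69 with no filter, 9 with the 4 hr mice, 0 in acute and 1 in repeated mice alone, 0 by DESeq2 without acute 1 hr replicate 2, 2 at a fold over 1.5, and 0 to 25 when 1 mouse was left out (0 without naive replicate 1 or repeated 1 hr replicate 1, 2 without repeated 0 hr replicate 1, 3 without repeated 2 hr replicate 2, 12 without repeated 0 hr replicate 2, 14 without repeated 1 hr replicate 2). At 2 hr, higher genes numbered 5 by DESeq2, 22 with no filter, 2 with the 4 hr mice, 6 in repeated mice alone, 7 by DESeq2 without acute 1 hr replicate 2 and 0 to 10 when 1 mouse was left out (2 without naive replicate 1 or 3, 4 without acute 2 hr replicate 2). Lower genes at 2 hr numbered 12 with no filter, 2 by DESeq2 without acute 1 hr replicate 2 and 0 to 3 when 1 mouse was left out (1 without repeated 0 hr replicate 2). From 1 to 2 hr, 57 genes differed with no filter and 1 to 7 when 1 mouse was left out (2 without acute 2 hr replicate 2, 1 without repeated 1 hr replicate 2 or repeated 2 hr replicate 2). The interaction called 65 genes at 1 hr and 2 at 2 hr with no filter, 0 to 215 at 1 hr when 1 mouse was left out (1 without naive replicate 3), and 0 to 0 at 2 hr. Genes with a lower 1 hr response in LCtx than in DS numbered 44 with the mouse as a block and 13 without acute 1 hr replicate 2, and genes with a higher one 0 without that mouse. The values of 43, 25 and 215 came without acute 1 hr replicate 1, which leaves replicate 2 as the lone acute mouse at 1 hr, assumed to vary like the other groups. With no filter, genes with few counts enter the test. For the other changes in counts the cause was not tested.

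Replicate numbers did not pair the mice: deviations of the 30 same-numbered pairs correlated at −0.056 to 0.026, with 0 over 0.1. The replicate block gave 13 higher and 5 lower genes at 1 hr, 1 higher at 2 hr, 1 for the interaction at 1 hr, and log2FC values of the opposite sign at 2 hr for Nr4a1 (−0.023) and Nts (−0.086).

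Signs turned for Nts at 1 hr in repeated mice alone (−0.42) and by DESeq2 without acute 1 hr replicate 2 (−0.40), with a range of −0.41 to 2.82 when 1 mouse was left out, for Ecel1 in repeated mice alone (−0.095), and for Baiap3 in repeated mice alone (−0.19), by DESeq2 without acute 1 hr replicate 2 (−0.0087) and with a range of −0.0012 to 1.75. At 2 hr, where none of these passed, acute mice alone gave Arc −0.044, Ddit4 −0.055, Nr4a1 −0.066 and Nts −0.13, repeated mice alone gave Arl4d −0.080, Dusp1 0.28 and Ecel1 −0.15, and DESeq2 without acute 1 hr replicate 2 gave Nts −0.050. Leaving out 1 mouse gave Dusp1 −0.18 to 0.11, Nr4a1 −0.12 to 0.13, Nts −0.57 to 0.53 and Ecel1 −0.29 to 0.56.

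With 2747406 to 6606165 counts and 2 or 3 mice per treatment and time, precision is limited, and the genes carried by acute 1 hr replicate 2 have large errors (SE 0.71 for Nts and 0.38 for Zic1 at 1 hr). The cocaine effect is not separated from injection and handling, nor treatment from sequencing run.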

Other observations

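Lists not described above held no called gene at 1 or 2 hr over both treatments. Of the 22 heat-shock and ER chaperones, which rise with protein folding stress, 7 had a positive log2FC at 1 hr with a median of −0.06, and the most abundant, Hspa8 and Hsp90ab1, had −0.07 and −0.05. Of the 24 monoamine receptors and transporters, the targets through which cocaine acts, 12 had enough counts to be tested in LCtx, and 9 of these had a positive log2FC with a median of 0.12. Without acute 1 hr replicate 2, 7 of 12 did, with a median of 0.03. Among them the serotonin receptor Htr2c had a log2FC of 0.38 and the adrenergic receptor Adra1b −0.28, both with that mouse. Htr2c had its highest count in it, 301. It had 258 in acute 1 hr replicate 1, the deepest library, and 95 to 167 in the rest.

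Vascular lists moved little. Endothelial markers had a median log2FC of −0.04 at 1 hr (18 genes) and mural and meningeal markers of 0.09 (15 genes), or 0.15 without acute 1 hr replicate 2. At 2 hr blood markers had a median of −0.29, with 1 of 12 genes positive and 0 called.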
